A study of Homo sapiens with 8 samples.

Results

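Messenger RNA of 35 genes for glucose transport, glycolysis and the handling of pyruvate was followed in CHLA-20 and NGP cells, both established human neuroblastoma lines, with and without an inhibitor of the arginine methyltransferase PRMT5. The genes come from a list of named transporters and enzymes, and each was found by its GENCODE 29 identifier among the 58721 genes of the count files. All 35 passed the filter on low counts and were among the 19395 genes tested. PDK4 passed it through CHLA-20 with DMSO, the group where it is highest, and had under 10 counts in both libraries of each of the other groups. Each line received the vehicle DMSO or the inhibitor for 6 days. The samples name the inhibitor JSK591 and the treatment description names it GSK591, at an IC50 dose with no concentration. The 4 groups, CHLA-20 DMSO, CHLA-20 JSK591, NGP DMSO and NGP JSK591, hold 2 libraries each. CHLA-20 grew in IMEM with serum, insulin, transferrin and selenite, and NGP grew in RPMI1640 with serum, so differences between the lines and between their media, insulin included, cannot be told apart. The labels give no genotype beyond the line, and do not say whether replicates were separate cultures, so p-values measure the spread between these libraries, which may be technical. In bulk RNA, fewer cells of a type and less RNA per cell cannot be told apart.

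The libraries held 33188542 to 34914902 counts assigned to genes, of which 19.0% to 21.4% came from mitochondrially encoded genes. Of 13 neuroblastoma markers, the summed level was 6435 to 6565 CPM (read counts scaled to library depth) in CHLA-20 DMSO and 2771 to 2930 CPM in NGP DMSO. It was 5264 to 5366 CPM in CHLA-20 JSK591 and 2724 to 2725 CPM in NGP JSK591. Single markers went both ways with JSK591, with 5 of 12 tested called higher and 7 lower in CHLA-20, and 4 higher and 5 lower in NGP. Of all genes tested, 16.9% were higher and 22.4% lower in CHLA-20, and 16.8% and 19.4% in NGP. CHGA had no count in 3 of the 4 groups, which allows up to 0.0904 CPM. TH, the enzyme of the first step of catecholamine synthesis, stood at 1381 CPM in CHLA-20 DMSO and 0.762 CPM in NGP DMSO. The 8 blood markers summed to at most 0.39 CPM and the 8 epithelial markers to 2.74 to 9.74 CPM. The 10 fibroblast and Schwann cell markers summed to 503 to 505 CPM in CHLA-20 DMSO and 433 to 438 CPM with JSK591, and to 698 to 713 CPM in NGP DMSO and 793 to 831 CPM with JSK591. Their part in the results was not tested.

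Glycolysis turns glucose into pyruvate. Transporters of the SLC2A family bring glucose into the cell, hexokinase traps it as a phosphate, and phosphofructokinase commits it to the pathway. The lower steps, from GAPDH to pyruvate kinase, yield ATP and NADH. Pyruvate then either becomes lactate, which regenerates NAD+ and leaves the cell through monocarboxylate transporters, or enters the mitochondrion through the MPC carrier and meets the pyruvate dehydrogenase complex, which the PDK kinases switch off. Several steps have isoenzymes from different genes with different tissue use. ENO2 and ALDOC are the enolase and aldolase typical of neurons, and neuroblastoma arises from the neural crest.

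After 6 days of JSK591, LDHA, SLC16A1, HK2, PGAM1 and PGK1 rose in both lines, and ALDOC, ENO2, PFKL, PDHA1 and PDK2 fell in both. The largest rise was that of LDHA in CHLA-20, 1.32-fold, and the largest fall of a gene above 1 CPM was that of ALDOC in NGP, 1.81-fold. In CHLA-20, 8 of 35 members were higher (22.9%) and 9 lower (25.7%), where 16.9% and 22.4% of all genes tested were higher and lower. Among the 9 is PDK4, for which the test has no weight, since it passed the filter only through the group where it is high. Without PDK4, 8 of 34 members were lower (23.5%). In NGP, 5 members were higher (14.3%) and 13 lower (37.1%), against 16.8% and 19.4% of all genes. Members higher in both lines were 5 of 35, where 5.72% of all genes were, and members lower in both lines were also 5, where 8.98% were. LDHB was called in opposite directions, as were 4.3% of all genes. The 2 comparisons share no library. A gene is called where the quasi-likelihood test of edgeR gave a p under 0.05 after Benjamini-Hochberg adjustment over the 19395 genes. Members lower in NGP were 7 without NGP DMSO replicate 2 and 8 without NGP JSK591 replicate 2, and members lower in CHLA-20 were 5 without CHLA-20 DMSO replicate 2.

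Changes were small. The median log2 change of the members was -0.03 in CHLA-20, where that of all genes was -0.02, and -0.09 in NGP, where that of all genes was 0.00. No member was called higher by 1.5-fold or more, where 3.84% of all genes were in CHLA-20 and 5.64% in NGP. ALDOC was lower by that much in CHLA-20 (5.53% of all genes), leaving out PDK4, and ALDOC and SLC2A3 in NGP (2.4% of all genes). Across the 34 members other than PDK4, 23 had the same sign in both lines, with a Pearson correlation of 0.67 across genes. Over all genes tested, 59.1% had the same sign and the correlation was 0.13. All genes tested include genes just past the filter on low counts, whose changes are less certain. No correlation over genes of matched level was worked out. Genes are not independent replicates, and the members share the libraries they are measured in.

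**Figure D1:**
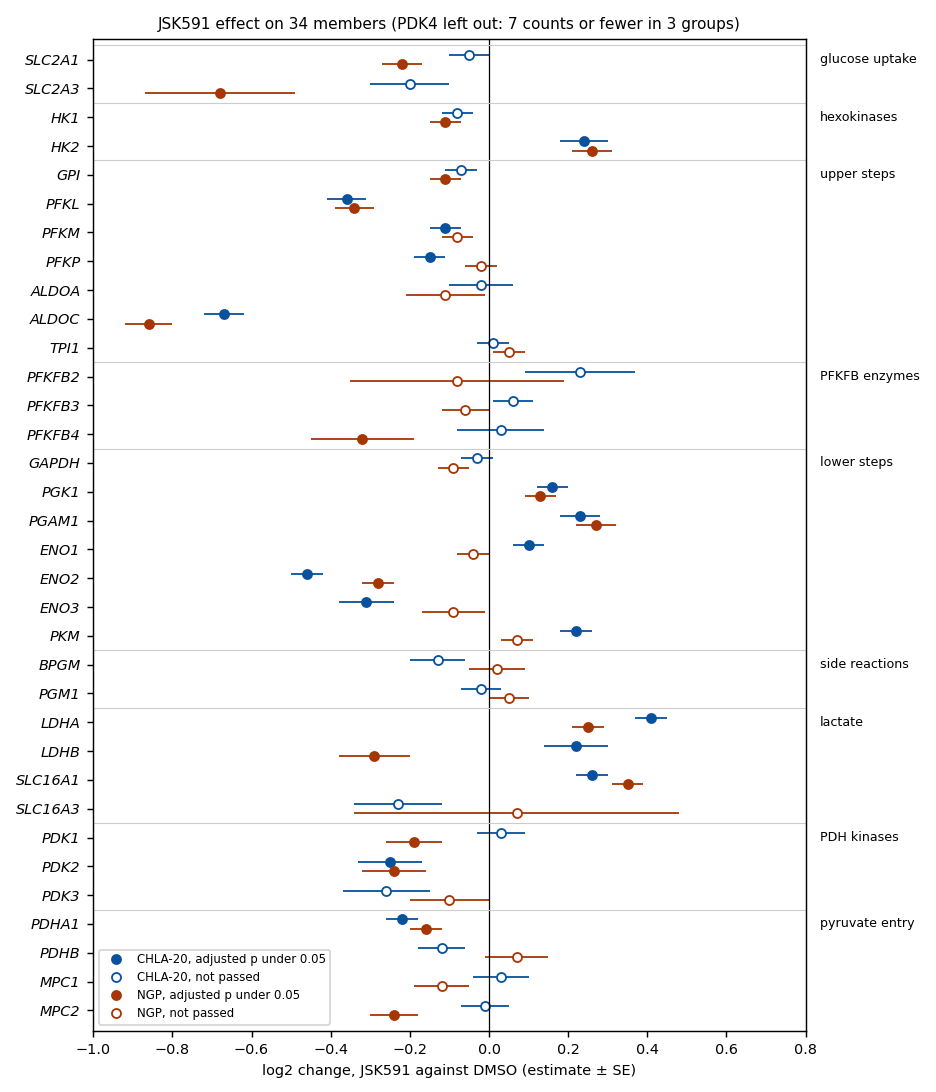
Log2 change with JSK591 against DMSO (horizontal axis, estimate with SE as bars) for 34 members in CHLA-20 (blue) and NGP (brown), ordered by their place in the pathway, with filled points for an adjusted p under 0.05. ALDOC lies farthest to the left in both lines, at -0.67 and -0.86, and LDHA farthest to the right in CHLA-20, at 0.41.

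Promoter sequence is shown for 4 of the 10 genes that moved the same way in both lines, since hypoxia and MYC factors, both known regulators of glycolytic genes, bind the letters searched for. The bases lie before a start site in RefSeq, build GRCh38.p14, outside every exon of GENCODE 29, and each stretch is the longest such run in the 250 bases before the start. The stretches were picked for holding these letters: where a gene has several starts, that with the most matches was taken, and genes with no match, with under 60 such bases or with no entry in the table are not shown. They therefore say nothing of how often the letters occur, which the shares after them give. For all 4 genes that start lies inside the longest annotated span of the gene. In them, capitals mark ACGTG, a form of the core of the hypoxia response element, on either strand. They also mark CACGTG, the E-box that MYC family proteins bind, which holds ACGTG within it. The form GCGTG of the core was not searched for and stays in lower case. HK2, PGK1 and LDHA rose in both lines, and PDK2 fell in both.
HK2, chr2:74834920-74835169, plus strand: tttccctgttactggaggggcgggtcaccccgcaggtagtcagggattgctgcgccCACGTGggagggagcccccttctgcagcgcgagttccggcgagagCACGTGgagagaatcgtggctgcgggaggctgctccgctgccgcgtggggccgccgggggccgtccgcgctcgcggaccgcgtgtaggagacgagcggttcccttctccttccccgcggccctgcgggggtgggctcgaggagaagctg
PGK1, chrX:78103998-78104173, plus strand: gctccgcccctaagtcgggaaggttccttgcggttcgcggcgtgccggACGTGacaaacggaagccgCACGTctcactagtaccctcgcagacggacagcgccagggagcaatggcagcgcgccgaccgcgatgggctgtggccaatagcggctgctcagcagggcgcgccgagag
LDHA, chr11:18394313-18394387, plus strand: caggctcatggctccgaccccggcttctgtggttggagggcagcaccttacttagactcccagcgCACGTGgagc
PDK2, chr17:50095101-50095274, plus strand: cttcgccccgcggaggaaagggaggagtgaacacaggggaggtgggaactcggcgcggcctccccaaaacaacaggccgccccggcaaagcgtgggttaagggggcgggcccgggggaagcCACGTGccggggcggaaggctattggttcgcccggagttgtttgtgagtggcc

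HK2 held 2 E-boxes in these bases, LDHA and PDK2 held 1 each, and PGK1 held 2 copies of ACGTG and no E-box. Over full windows of 300 bases, 32 of the 35 members had an entry in the RefSeq promoter table, with 65 windows. CACGTG was in 8 of the 65 windows (12.3%) and in 7.26% of all 35116 windows. ACGTG, which includes the E-boxes, was in 23 of the 65 (35.4%) and in 21.4% of all windows. By gene, ACGTG was found for 3 of 4 genes that rose in both lines (HK2, PGK1 and LDHA) and for 3 of 5 that fell in both (ALDOC, ENO2 and PDK2), where 19 of 32 members and 24.9% of all genes in the table held it. A gene was counted if any of its windows held the letters, so shares by gene also depend on the number of windows. The 32 members had 65 windows, and the 27305 genes in the table had 35116. A match is a stretch of letters and not a measured site.

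Of the 4 genes for lactate, 3 were called higher in CHLA-20 and none lower, against 16.9% and 22.4% of all genes. In NGP 2 were called higher and 1 lower, against 16.8% and 19.4% of all genes. LDHA (ENSG00000134333.13, chr11:18394388-18408425, GRCh38), the lactate dehydrogenase subunit that favours making lactate, stood at 403 and 395 CPM in CHLA-20 DMSO and at 525 and 533 CPM with JSK591. In NGP it went from 270 and 282 CPM to 322 and 332 CPM. The groups did not overlap in either line, and treated NGP stayed below untreated CHLA-20. LDHA rose by 0.41 ± 0.04 (SE) on the log2 scale in CHLA-20 (edgeR adjusted p = 1.47e-14) and 0.25 ± 0.04 in NGP (1.68e-07). Its 6 annotated copies elsewhere in the genome took 2.58% to 5.13% of the counts of gene and copies.

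SLC16A1 (ENSG00000155380.11, chr1:112911847-112957013) encodes MCT1, a carrier of lactate and pyruvate across the plasma membrane. It stood at 98.4 and 99.7 CPM in CHLA-20 DMSO and 120 and 118 CPM with JSK591, and at 117 and 113 CPM in NGP DMSO and 145 and 148 CPM with JSK591. Both treated libraries exceeded both vehicle libraries in each line. SLC16A1 rose by 0.26 ± 0.04 in CHLA-20 (edgeR adjusted p = 3.25e-07) and 0.35 ± 0.04 in NGP (1.39e-10). SLC16A3, which encodes the lactate exporter MCT4, gave -0.23 ± 0.11 in CHLA-20 (edgeR adjusted p = 0.101) and did not pass.

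LDHB, the subunit that favours turning lactate back into pyruvate, was called higher in CHLA-20 and lower in NGP. Of its coding bases 93.5%, and of all its exonic bases 33.4%, are shared with other genes, the coding ones with exons of a same-strand annotated gene, AC010197.2, which itself had 0 to 2 counts. Reads in bases that 2 genes share are set aside as ambiguous, so LDHB was counted on its unshared bases, mostly outside the coding sequence, and its level is uncertain. It stood at 23.8 and 19.8 CPM in CHLA-20 DMSO, 26.3 and 24.7 CPM with JSK591, 16 and 20.2 CPM in NGP DMSO and 16.7 and 12.9 CPM with JSK591. The NGP groups overlapped. Its log2 change was 0.22 ± 0.08 in CHLA-20 (edgeR adjusted p = 0.0234) and -0.29 ± 0.09 in NGP (0.0101). With the DESeq2 test LDHB passed in neither line (DESeq2 adjusted p = 0.192 in CHLA-20 and 0.0881 in NGP). With no filter on low counts it passed in neither as well (edgeR adjusted p = 0.238 and 0.176). Without CHLA-20 DMSO replicate 2 the CHLA-20 value was 0.12 (edgeR adjusted p = 0.347), without CHLA-20 JSK591 replicate 1 it was 0.18 (0.211) and without CHLA-20 JSK591 replicate 2 it was 0.27 (0.051). The NGP value was -0.12 (edgeR adjusted p = 0.462) without NGP DMSO replicate 2 and -0.11 (0.483) without NGP JSK591 replicate 2.

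Of the 2 glucose transporters, neither passed in CHLA-20 and both fell in NGP, where 19.4% of all genes were lower. SLC2A1, which encodes the widely expressed GLUT1, stood at 71.8 and 73.6 CPM in NGP DMSO and at 60.1 and 65.0 CPM with JSK591, with no overlap. Its log2 change was -0.22 ± 0.05 in NGP (edgeR adjusted p = 2.35e-04) and -0.05 ± 0.05 in CHLA-20 (0.472), where the values of 68.9 and 67.3 CPM with DMSO and 68.9 and 62.9 CPM with JSK591 overlapped. SLC2A3, which encodes the high-affinity GLUT3 typical of neurons, stood at 2.47 and 3.24 CPM in NGP DMSO and 2.08 and 1.47 CPM with JSK591. Its log2 change in NGP was -0.68 ± 0.19 (edgeR adjusted p = 0.00233). Without NGP DMSO replicate 2 the SLC2A3 value was -0.49 (edgeR adjusted p = 0.103), and without NGP JSK591 replicate 2 it was -0.45 (0.109). The difference between the lines' effects did not pass for either transporter, at -0.17 ± 0.07 for SLC2A1 (edgeR adjusted p = 0.0588) and -0.48 ± 0.21 for SLC2A3 (0.0819). It did pass for SLC2A1 without CHLA-20 JSK591 replicate 2 (-0.24, edgeR adjusted p = 0.0227), NGP DMSO replicate 1 (-0.24, 0.0148) or NGP JSK591 replicate 2 (-0.23, 0.0249). For SLC2A3 it passed without CHLA-20 DMSO replicate 2 (-0.61, edgeR adjusted p = 0.035), NGP DMSO replicate 1 (-0.72, 0.0186) or NGP JSK591 replicate 1 (-0.81, 0.0135).

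HK2 (ENSG00000159399.9, chr2:74833981-74893359), the inducible hexokinase, rose in both lines from a low share of the hexokinase messages. It stood at 31.5 and 34.1 CPM in CHLA-20 DMSO, 39.0 and 38.4 CPM with JSK591, 45.0 and 41.8 CPM in NGP DMSO and 50.5 and 53.8 CPM with JSK591. Treated and vehicle libraries did not overlap in either line. HK2 changed by 0.24 ± 0.06 (log2) in CHLA-20 (edgeR adjusted p = 4.76e-04) and 0.26 ± 0.05 in NGP (5.55e-05). HK1, the hexokinase of most tissues, gave -0.08 ± 0.04 in CHLA-20 (edgeR adjusted p = 0.106) and -0.11 ± 0.04 in NGP (0.0176). Without NGP DMSO replicate 2 the NGP value of HK1 was -0.09 (edgeR adjusted p = 0.116), and without NGP JSK591 replicate 2 it was -0.10 (0.118). Per kilobase of exon, HK2 made up 14.3% ± 0.61 (SD, n = 2) of the 2 hexokinases in CHLA-20 DMSO and 17.2% ± 0.34 with JSK591, and 20.4% ± 1.3 in NGP DMSO and 24.9% ± 1.0 with JSK591. With the length of the longest transcript in place of all exons, the share of HK2 ran from 10.0% in CHLA-20 DMSO to 18.1% in NGP JSK591, in the same order of groups.

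Among the 7 genes of the upper steps, from glucose 6-phosphate to the triose phosphates, none was called higher, 4 were lower in CHLA-20 (57.1%, where 22.4% of all genes were) and 3 in NGP (42.9%, where 19.4% of all genes were). PFKL (ENSG00000141959.16, chr21:44300051-44327376), the liver-type phosphofructokinase, stood at 66.6 and 73.2 CPM in CHLA-20 DMSO and 56.4 and 52.3 CPM with JSK591. In NGP it went from 50.6 and 53.3 CPM to 40.7 and 41.4 CPM. Groups did not overlap in either line. PFKL changed on the log2 scale by -0.36 ± 0.05 in CHLA-20 (edgeR adjusted p = 1.88e-08) and -0.34 ± 0.05 in NGP (5.35e-07). The muscle-type PFKM and the platelet-type PFKP were called lower in CHLA-20, at -0.11 ± 0.04 (edgeR adjusted p = 0.0137) and -0.15 ± 0.04 (0.00233), and in NGP they gave -0.08 ± 0.04 and -0.02 ± 0.04 without passing, although PFKM passed in NGP without CHLA-20 DMSO replicate 2 (-0.10, edgeR adjusted p = 0.0328). PFKM lost its call in CHLA-20 without CHLA-20 DMSO replicate 1 (-0.11, edgeR adjusted p = 0.0554), CHLA-20 DMSO replicate 2 (-0.08, 0.204), CHLA-20 JSK591 replicate 2 (-0.09, 0.142), NGP DMSO replicate 1 (-0.08, 0.0683), NGP DMSO replicate 2 (-0.08, 0.067) or NGP JSK591 replicate 1 (-0.08, 0.0796). PFKP lost it without CHLA-20 DMSO replicate 2 (-0.07, edgeR adjusted p = 0.322) or CHLA-20 JSK591 replicate 2 (-0.09, 0.215). PFKL was the least of the 3 isoenzymes per kilobase, at 9.38% ± 0.32 of them in CHLA-20 DMSO, 8.09% ± 0.13 with JSK591, 10.3% ± 0.49 in NGP DMSO and 8.59% ± 0.068 with JSK591.

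ALDOC (ENSG00000109107.13, chr17:28573115-28577264), the brain-type aldolase that splits fructose 1,6-bisphosphate, changed more than any other member above 1 CPM. It stood at 97.4 and 95.4 CPM in CHLA-20 DMSO and at 60.6 CPM in both treated libraries, and went from 27.0 and 28.3 CPM to 15.5 and 15.1 CPM in NGP. The groups lay far apart in each line. The log2 change was -0.67 ± 0.05 in CHLA-20 (edgeR adjusted p = 6.69e-19) and -0.86 ± 0.06 in NGP (4.65e-17), which is 1.59-fold and 1.81-fold lower. The difference of the 2 effects was -0.19 ± 0.08 and did not pass (edgeR adjusted p = 0.0738), but passed without NGP DMSO replicate 1 (-0.28, 0.0176) or NGP JSK591 replicate 1 (-0.26, 0.0427). ALDOA, the aldolase of most tissues, gave -0.02 ± 0.08 and -0.11 ± 0.10. Of its coding bases 93.8% lie in exons of the same-strand gene AC093512.2, which had 8 to 34 counts, and 53.5% of its exonic bases are shared. Its 9.88 to 18.9 CPM come from the unshared bases, and its level is uncertain.

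The other upper genes moved little. GPI, which turns glucose 6-phosphate into fructose 6-phosphate, gave -0.07 ± 0.04 in CHLA-20 and -0.11 ± 0.04 in NGP, where it was called lower (edgeR adjusted p = 0.0226). It lost that call without NGP JSK591 replicate 1 (-0.12, edgeR adjusted p = 0.0586) and without NGP JSK591 replicate 2 (-0.12, 0.0504). TPI1, which interconverts the triose phosphates, gave 0.01 ± 0.04 and 0.05 ± 0.04 and passed in neither line. Its 4 copies elsewhere took 11.6% to 12.6% of the counts of gene and copies. Of the PFKFB enzymes, which set the level of the phosphofructokinase activator fructose 2,6-bisphosphate, none passed in CHLA-20, where PFKFB2, PFKFB3 and PFKFB4 gave 0.23 ± 0.14, 0.06 ± 0.05 and 0.03 ± 0.11. PFKFB3 passed there, as higher, without CHLA-20 DMSO replicate 2 (0.16, edgeR adjusted p = 0.0424). In NGP PFKFB4 was called lower at -0.32 ± 0.13 (edgeR adjusted p = 0.0480), from 4.98 and 5.84 CPM to 4.39 and 4.26 CPM. That call was lost in 8 of 18 alternatives. Among them were the DESeq2 test (-0.34, DESeq2 adjusted p = 0.176) and no filter on low counts (-0.32, edgeR adjusted p = 0.156). It was also lost without NGP DMSO replicate 2 (-0.22), NGP JSK591 replicate 1 (-0.37) or NGP JSK591 replicate 2 (-0.30). BPGM, which makes 2,3-bisphosphoglycerate, and PGM1, which links glucose 6-phosphate to glycogen, passed in neither line, with changes from -0.13 to 0.05.

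Of the 7 genes of the lower steps, 4 were called higher and 2 lower in CHLA-20, against 16.9% and 22.4% of all genes. In NGP 2 were called higher and 1 lower, against 16.8% and 19.4% of all genes. PGK1 (ENSG00000102144.14, chrX:77910739-78129296), the first ATP-forming enzyme, stood at 262 and 258 CPM in CHLA-20 DMSO, 289 and 292 CPM with JSK591, 208 and 202 CPM in NGP DMSO and 219 and 228 CPM with JSK591. Its log2 change was 0.16 ± 0.04 in CHLA-20 (edgeR adjusted p = 3.06e-04) and 0.13 ± 0.04 in NGP (0.0059). In NGP the value was 0.09 (edgeR adjusted p = 0.127) without NGP DMSO replicate 2 and 0.10 (0.0974) without NGP JSK591 replicate 2. PGAM1 (ENSG00000171314.8, chr10:97426160-97433441), which moves the phosphate of 3-phosphoglycerate, went from 67.6 and 65.7 CPM to 77.0 and 79.7 CPM in CHLA-20 and from 54.2 and 53.6 CPM to 64.8 and 65.0 CPM in NGP. Treated libraries of both genes stood above the vehicle libraries of their line. The log2 change of PGAM1 was 0.23 ± 0.05 (edgeR adjusted p = 2.59e-05) and 0.27 ± 0.05 (5.48e-06). GAPDH, often used as a constant reference gene, gave -0.03 ± 0.04 in CHLA-20 and -0.09 ± 0.04 in NGP (edgeR adjusted p = 0.0556). GAPDH passed in NGP, as lower, without CHLA-20 DMSO replicate 1 (-0.09, edgeR adjusted p = 0.0427), CHLA-20 DMSO replicate 2 (-0.11, 0.00969), NGP DMSO replicate 1 (-0.13, 0.0186) or NGP JSK591 replicate 2 (-0.13, 0.00849).

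ENO2 (ENSG00000111674.8, chr12:6913745-6923698), neuron-specific enolase and a clinical marker of neuroblastoma, fell in both lines. It stood at 263 and 269 CPM in CHLA-20 DMSO and 198 and 189 CPM with JSK591, and at 103 and 105 CPM in NGP DMSO and 86.4 and 84.8 CPM with JSK591. No library overlapped between treatments or lines. ENO2 changed on the log2 scale by -0.46 ± 0.04 in CHLA-20 (edgeR adjusted p = 8.20e-16) and -0.28 ± 0.04 in NGP (1.44e-07). ENO1, the enolase of most tissues, was called higher in CHLA-20 at 0.10 ± 0.04 (edgeR adjusted p = 0.0252), from 938 and 950 CPM to 1027 and 992 CPM, and gave -0.04 ± 0.04 in NGP. Without CHLA-20 DMSO replicate 1 the CHLA-20 value of ENO1 was 0.09 (edgeR adjusted p = 0.116), and without CHLA-20 JSK591 replicate 1 it was 0.07 (0.237). ENO3, the muscle enolase, went from 25.4 and 24.2 CPM to 20.0 CPM in both libraries in CHLA-20, a change of -0.31 ± 0.07 (edgeR adjusted p = 2.10e-04), and gave -0.09 ± 0.08 in NGP. The share of ENO2 among the 3 enolases, per kilobase of exon, was 25.2% ± 0.16 in CHLA-20 DMSO and 18.7% ± 0.11 with JSK591, and 7.31% ± 0.038 in NGP DMSO and 6.27% ± 0.28 with JSK591. PKM, the pyruvate kinase gene whose splicing gives the M1 and M2 forms, rose in CHLA-20 from 733 and 755 CPM to 875 and 862 CPM, by 0.22 ± 0.04 (edgeR adjusted p = 5.57e-07). In NGP it gave 0.07 ± 0.04. Gene counts do not separate the M1 and M2 forms.

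**Figure D2:**
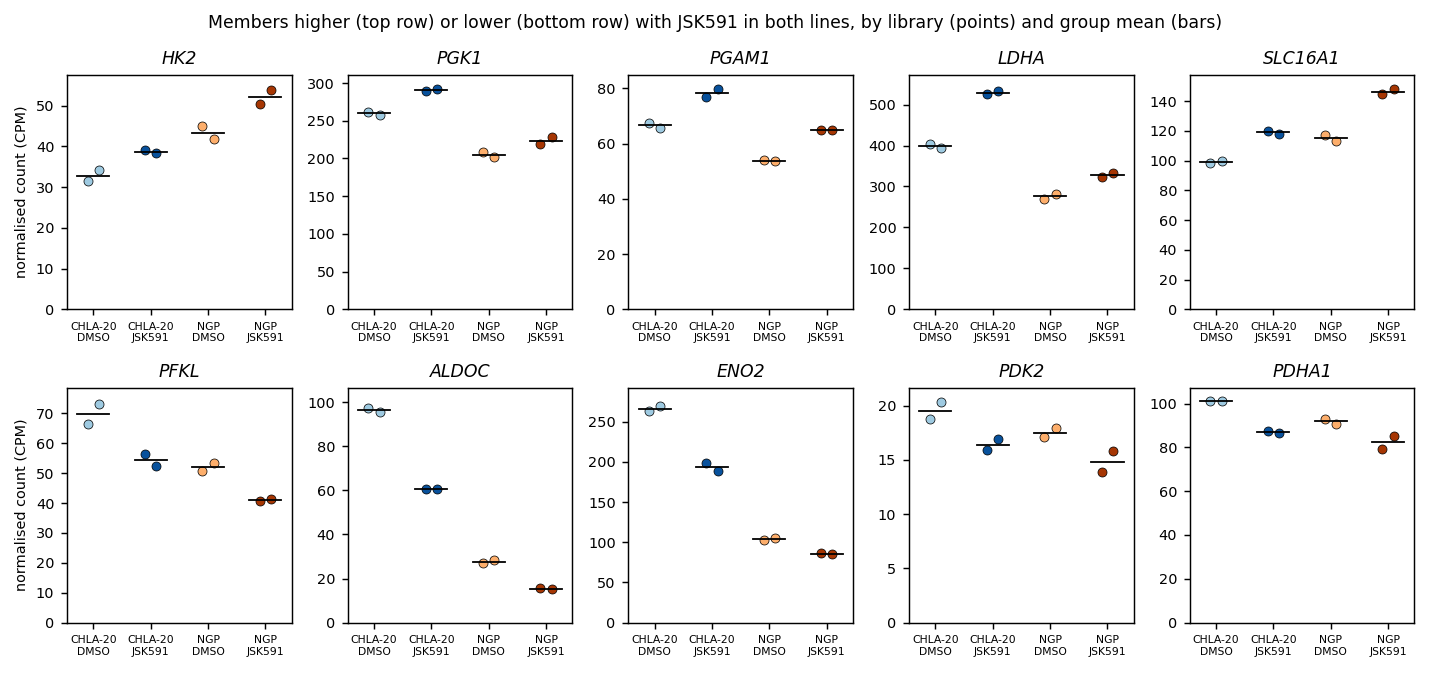
Normalised counts (CPM, vertical axis from 0) of the 10 members called in the same direction in both lines, with a point per library and a bar at the mean of each group. LDHA, in the upper row, went from 403 and 395 CPM to 525 and 533 CPM in CHLA-20, and ENO2, in the lower row, stood at 263 and 269 CPM in CHLA-20 DMSO and 86.4 and 84.8 CPM in NGP JSK591.

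Of the 4 genes for the entry of pyruvate into the mitochondrion, 1 was called lower in CHLA-20 and 2 in NGP, and none higher. Of all genes, 22.4% were lower in CHLA-20 and 19.4% in NGP, and 16.9% and 16.8% were higher. PDHA1 (ENSG00000131828.13, chrX:19343893-19361705), the catalytic alpha subunit of pyruvate dehydrogenase, stood at 101 CPM in both CHLA-20 DMSO libraries, 87.3 and 86.5 CPM with JSK591, 92.8 and 90.9 CPM in NGP DMSO and 79.1 and 85.4 CPM with JSK591. Treated libraries lay below vehicle libraries in each line. The log2 change was -0.22 ± 0.04 in CHLA-20 (edgeR adjusted p = 3.17e-05) and -0.16 ± 0.04 in NGP (0.00272), and without NGP JSK591 replicate 1 the NGP value was -0.13 (0.0698). Of the exonic bases of PDHA1, 21.3% are shared with other genes, most with MAP3K15, but 0% of its coding bases are. PDHB, the beta subunit, gave -0.12 ± 0.06 and 0.07 ± 0.08 and passed in neither line. Of its coding bases 21% are shared, most with AC135507.1 on the other strand, which had 0 to 7 counts. MPC2, a subunit of the mitochondrial pyruvate carrier, fell in NGP from 27.0 and 25.3 CPM to 21.9 and 22.3 CPM, by 0.24 ± 0.06 on the log2 scale (edgeR adjusted p = 0.00208). In CHLA-20 MPC2 gave -0.01 ± 0.06. Its partner MPC1 gave 0.03 ± 0.07 and -0.12 ± 0.07 and did not pass.

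The PDK kinases phosphorylate PDHA1 and so switch the complex off. Of the 4, none was called higher. PDK2 was called lower in both lines and PDK1 in NGP, where 22.4% of all genes were lower in CHLA-20 and 19.4% in NGP. PDK2 (ENSG00000005882.11, chr17:50094737-50112152), the most widely expressed of them, stood at 18.8 and 20.3 CPM in CHLA-20 DMSO, 15.9 and 16.9 CPM with JSK591, 17.1 and 17.9 CPM in NGP DMSO and 13.9 and 15.8 CPM with JSK591. The groups did not overlap within a line, but were close. Its log2 change was -0.25 ± 0.08 in CHLA-20 (edgeR adjusted p = 0.00507) and -0.24 ± 0.08 in NGP (0.0124). With the DESeq2 test PDK2 passed in neither line (DESeq2 adjusted p = 0.0825 in CHLA-20 and 0.0827 in NGP). With no filter on low counts it did not pass in NGP (edgeR adjusted p = 0.0614). Without CHLA-20 DMSO replicate 2 the CHLA-20 value was -0.17 (edgeR adjusted p = 0.155) and without CHLA-20 JSK591 replicate 1 it was -0.21 (0.0855). Without NGP DMSO replicate 2 the NGP value was -0.22 (edgeR adjusted p = 0.0787) and without NGP JSK591 replicate 1 it was -0.17 (0.184). Of the exonic bases of PDK2, 38.6% are shared with other genes, mostly with SAMD14 on the other strand.

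PDK1, a kinase that hypoxia is known to induce, fell in NGP from 24.0 and 24.8 CPM to 21.5 and 21.3 CPM, by 0.19 ± 0.07 (edgeR adjusted p = 0.0176), and gave 0.03 ± 0.06 in CHLA-20. Without NGP DMSO replicate 2 the PDK1 value in NGP was -0.18 (edgeR adjusted p = 0.0883), and without NGP JSK591 replicate 2 it was -0.18 (0.0915). With the DESeq2 test PDK1 did not pass in NGP (-0.21, DESeq2 adjusted p = 0.0812). PDK3 gave -0.26 ± 0.11 in CHLA-20 (edgeR adjusted p = 0.0710) and -0.10 ± 0.10 in NGP. PDK4, a kinase known to rise with fasting, had 14 and 12 counts in CHLA-20 DMSO, 1 and 6 counts with JSK591, and in NGP 1 count in all. No fold or test is given for PDK4, at these counts and since it passed the filter through CHLA-20 DMSO alone.

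The effect of JSK591 itself differed between the lines for 6 of the 35 members. ENO2 had a difference, NGP minus CHLA-20, above 0 (2.86% of members, where 15.2% of all genes were higher), and ENO1, PKM, LDHA, LDHB and MPC2 had one below 0 (14.3% of members, where 12.5% of all genes were lower). The values were 0.18 ± 0.06 for ENO2 (edgeR adjusted p = 0.0132), -0.14 ± 0.05 for ENO1 (0.0304), -0.16 ± 0.05 for PKM (0.0156), -0.16 ± 0.05 for LDHA (0.0144), -0.51 ± 0.12 for LDHB (8.89e-04) and -0.23 ± 0.09 for MPC2 (0.0467). For ENO2 this was a smaller fall in NGP, and for LDHA a smaller rise. Each of the 6 lost its call when some library was left out, and 2 to 9 members were then called below 0. LDHA lost it without CHLA-20 JSK591 replicate 2 (-0.15, edgeR adjusted p = 0.0641), and PKM and ENO1 without CHLA-20 DMSO replicate 1 (-0.14, 0.0692, and -0.13, 0.076) or CHLA-20 JSK591 replicate 1 (-0.15, 0.0645, and -0.12, 0.150). LDHB reached -0.34 (edgeR adjusted p = 0.05, not under the threshold) without NGP JSK591 replicate 2. ENO2 lost its call without CHLA-20 DMSO replicate 2 (0.12, edgeR adjusted p = 0.197), CHLA-20 JSK591 replicate 2 (0.14, 0.114), NGP DMSO replicate 1 (0.10, 0.243), NGP DMSO replicate 2 (0.15, 0.0637) or NGP JSK591 replicate 1 (0.11, 0.222). MPC2 lost its call without CHLA-20 DMSO replicate 1 (-0.20, edgeR adjusted p = 0.168), CHLA-20 JSK591 replicate 1 (-0.25, 0.0728), CHLA-20 JSK591 replicate 2 (-0.22, 0.130), NGP DMSO replicate 1 (-0.24, 0.079) or NGP JSK591 replicate 2 (-0.25, 0.079). For the other 29 members the difference did not pass, which does not show that the lines responded alike. Besides SLC2A1, SLC2A3 and ALDOC, it passed for PFKP without CHLA-20 DMSO replicate 1 (0.19, edgeR adjusted p = 0.0287) or CHLA-20 JSK591 replicate 1 (0.20, 0.0292) and for PFKFB3 without CHLA-20 DMSO replicate 2 (-0.25, 0.0229). Without NGP DMSO replicate 1 it passed for PFKFB4 (-0.52, edgeR adjusted p = 0.0342), PDK1 (-0.29, 0.0268) and PDHB (0.28, 0.0473).

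Under DMSO most of these genes stood lower in NGP. This comparison uses the same vehicle libraries as the treatment comparisons. Of 35 members, 27 were lower in NGP (77.1%, where 38.9% of all genes were), or 26 of 34 without PDK4, and 4 were higher (11.4%, where 36.6% of all genes were). The median log2 difference, NGP minus CHLA-20, was -0.39 for the members and -0.02 for all genes. Leaving out PDK4, lower by 1.5-fold or more were 11 members (27.2% of all genes), and higher by that much was ENO1 alone among the members (23% of all genes). SLC2A1, PKM, PDK1 and MPC2 did not pass, with differences of 0.09 ± 0.05, -0.06 ± 0.04, -0.05 ± 0.06 and -0.02 ± 0.06. SLC2A1 passed, as higher, without NGP DMSO replicate 1 (0.16, edgeR adjusted p = 0.0127), NGP JSK591 replicate 1 (0.14, 0.00804) or NGP JSK591 replicate 2 (0.11, 0.0327). MYC and MYCN, transcription factors known to drive glycolytic genes, stood at 1398 and 2.34 CPM in CHLA-20 DMSO and at 0.972 and 2323 CPM in NGP DMSO. With JSK591, MYC was called lower in both lines and MYCN lower in NGP. The NGP call of MYC was lost without NGP DMSO replicate 2 or NGP JSK591 replicate 1, and that of MYCN with the DESeq2 test. Their part in the changes of the members was not tested.

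SLC16A3, the lactate exporter, was under 1 CPM in NGP. It stood at 9.41 and 10.5 CPM in CHLA-20 DMSO and at 0.596 and 0.210 CPM in NGP DMSO, 24.4-fold lower (-4.61 ± 0.20, edgeR adjusted p = 1.14e-29). The log2 difference of SLC16A3 was -5.49 without NGP DMSO replicate 1 and -4.01 without NGP DMSO replicate 2. SLC16A1 was 1.16-fold higher in NGP (0.21 ± 0.04, edgeR adjusted p = 6.14e-06) and made up 94.4% ± 0.34 of the 2 transporters per kilobase in CHLA-20 DMSO and 99.8% ± 0.14 in NGP DMSO. PFKFB2 was 4.59-fold lower in NGP (-2.20 ± 0.20, edgeR adjusted p = 1.43e-15), from 4.26 and 4.68 CPM to 0.894 and 1.05 CPM. The neuronal transporter SLC2A3 was 4.05-fold lower (-2.02 ± 0.13, edgeR adjusted p = 6.85e-22), from 11 and 12.2 CPM to 2.47 and 3.24 CPM.

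ALDOC was 3.48-fold lower in NGP DMSO than in CHLA-20 DMSO (-1.80 ± 0.05, edgeR adjusted p = 7.14e-40) and ENO2 2.56-fold lower (-1.35 ± 0.04, 3.00e-39). PDHB was 2.86-fold lower, at 46.8 and 47.4 CPM against 18.1 and 14.8 CPM (-1.52 ± 0.07, edgeR adjusted p = 1.02e-29), whereas PDHA1, its partner in the same enzyme, was 1.10-fold lower (-0.14 ± 0.04, 0.00337). That difference of PDHA1 did not pass without NGP DMSO replicate 1 (-0.10, edgeR adjusted p = 0.0714) or NGP DMSO replicate 2 (-0.09, 0.135). ENO3, TPI1, PFKFB4, PGM1 and PFKM were lower by 1.55-fold to 1.90-fold. ENO1 was 1.70-fold higher in NGP (0.77 ± 0.04, edgeR adjusted p = 1.33e-28), at 1595 and 1623 CPM against 938 and 950 CPM, and HK2, PDK3 and SLC16A1 were the other members that were higher, by 0.41 ± 0.06, 0.46 ± 0.11 and 0.21 ± 0.04 on the log2 scale. LDHB, PDK2 and MPC1 were called lower, but LDHB lost its call without CHLA-20 DMSO replicate 1 (-0.13, edgeR adjusted p = 0.217) or NGP DMSO replicate 1 (-0.06, 0.597). MPC1 (-0.15 ± 0.07, edgeR adjusted p = 0.0426) and PDK2 (-0.16 ± 0.08, 0.0467) lost theirs without any of several libraries, with adjusted p up to 0.353 without NGP DMSO replicate 2 for MPC1 and 0.443 without NGP DMSO replicate 1 for PDK2.

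**Figure D3:**
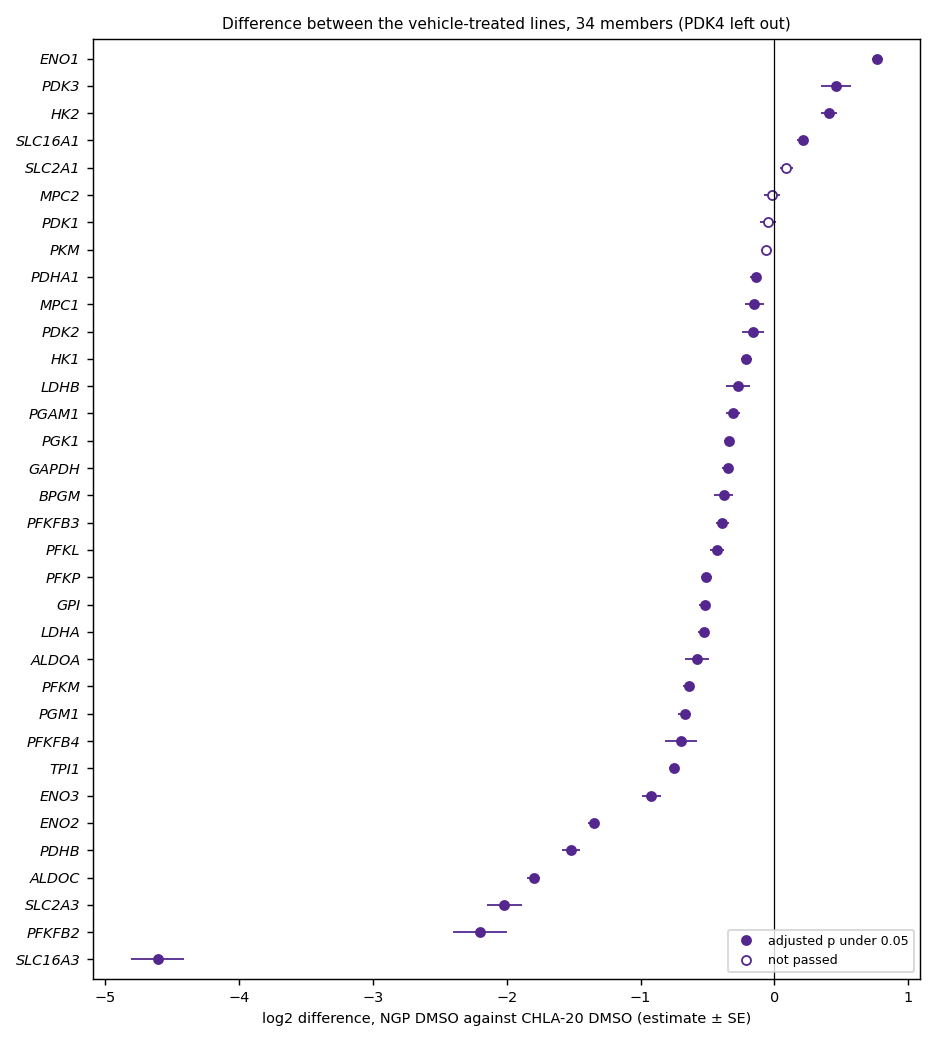
Log2 difference between the vehicle-treated lines (horizontal axis, NGP DMSO against CHLA-20 DMSO, estimate with SE as bars) for 34 members in order of size, with filled points for an adjusted p under 0.05. SLC16A3 lies farthest to the left at -4.61 and ENO1 farthest to the right at 0.77.

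Levels of different genes can be set side by side only per length. Per kilobase of exon in CHLA-20 DMSO, GAPDH stood highest at 939 ± 31 CPM per kilobase, followed by TPI1 at 241 ± 2.9, ENO1 at 179 ± 1.6, PKM at 86.8 ± 1.8, LDHA at 64.3 ± 0.90 and ENO2 at 62.1 ± 0.98, where LDHA and ENO2 differed by little more than their spread. In NGP DMSO the order at the top was GAPDH at 737 ± 9.9, ENO1 at 305 ± 3.8, TPI1 at 143 ± 4.3, PKM at 83.1 ± 3.4 and LDHA at 44.4 ± 1.4. By this length ENO1 and TPI1 changed places between the lines. The spread given does not cover the choice of length, and this order was not worked out with the longest transcript. The members together took 0.778% to 0.801% of gene counts in CHLA-20 and 0.685% to 0.700% in NGP. GAPDH, ENO1, PKM, TPI1 and LDHA alone took 69.4% to 75.6% of the members' counts. The 62 annotated copies of GAPDH took 6.13% to 6.68% of the counts of GAPDH and its copies, and reads with several alignments, 19.2% to 22.0% of counted reads, were not assigned to any gene.

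For the enolases, mean isoenzyme shares lay farther apart between the lines than between the treatments. ENO1 made up 72.5% ± 0.054 of enolase messages per kilobase in CHLA-20 DMSO, 79.3% ± 0.060 with JSK591, 91.8% ± 0.070 in NGP DMSO and 92.8% ± 0.28 with JSK591. Among the PDK kinases PDK2 held the largest share in each group, from 45.8% ± 2.3 in NGP JSK591 to 53.1% ± 2.1 in CHLA-20 DMSO. PDK1 made up 25.3% ± 0.81 in CHLA-20 DMSO and 29.4% ± 0.91 with JSK591, and 24.4% in both NGP groups. Among phosphofructokinases PFKM stood at 46.3% to 50.2% and PFKP at 41.7% to 45.1% as group means. SLC2A1 made up 88.5% ± 0.92 of the 2 glucose transporters in CHLA-20 DMSO and 97.1% ± 0.48 in NGP DMSO. Shares depend on the length used. With the longest transcript, ENO1 ran from 77% in CHLA-20 DMSO to 94.1% in NGP JSK591, and ENO2 from 19.6% to 4.65%. PDK2 then ran from 56.2% in NGP JSK591 to 63.1% in CHLA-20 DMSO. PFKM then stood at 50.8% to 54.8% and PFKP at 38.8% to 42.3% as group means. With 2 libraries against 2, a two-sided exact permutation test cannot give a p below 0.333, so the shares were not tested. No share is given for the aldolases and lactate dehydrogenases, because of the shared bases of ALDOA and LDHB.

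**Figure D4:**
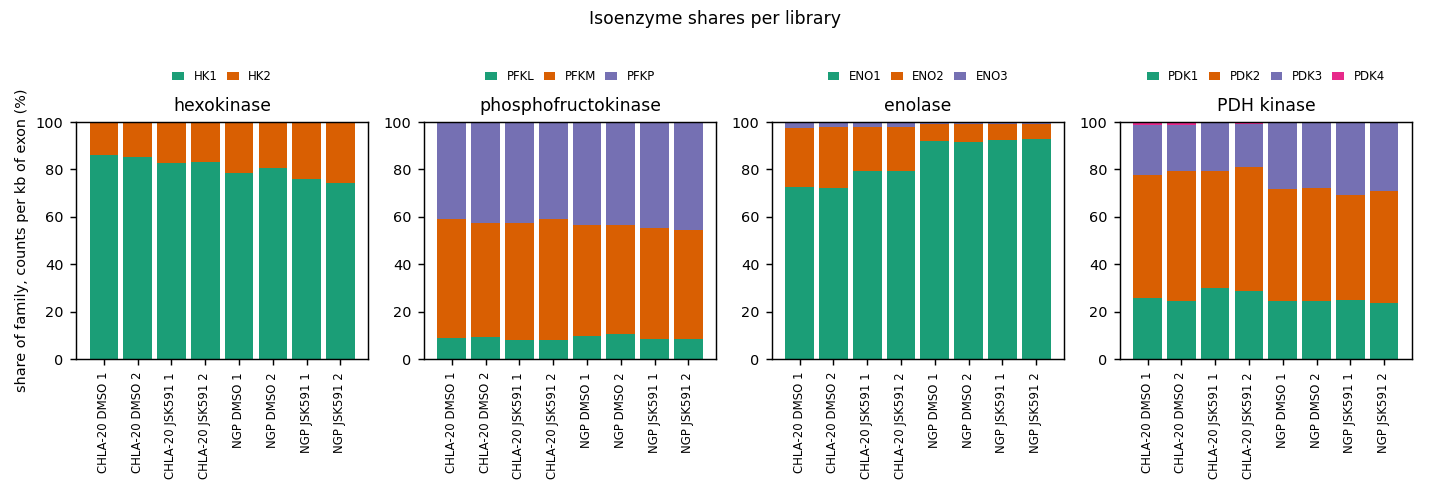
Share of each isoenzyme in the counts per kilobase of exon of its family (vertical axis, percent) in each of the 8 libraries, for hexokinases, phosphofructokinases, enolases and PDH kinases. ENO2 takes 25.1% and 25.3% of enolase in CHLA-20 DMSO and 6.08% and 6.47% in NGP JSK591.

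Among the 10 members called the same way in both lines, and so picked by their calls, base composition went with the direction of change. The 5 members higher in both lines had a median GC content of 44.0% in their longest transcript (43.3% to 52.8%), and the 5 lower in both lines had 56.8% (46.6% to 64.1%), where the median of all members was 52.7% and that of all genes tested 47.9%. PGK1, SLC16A1 and LDHA had 43.3%, 43.5% and 44.0%, and PFKL, PDK2 and ALDOC 64.1%, 59.8% and 56.8%. PGAM1 and HK2, at 52.8% and 51.2%, rose, and PDHA1, at 46.6%, fell. With the trend over GC content removed from each library, 9 of the 10 genes kept their calls in both lines, and PDK2 lost its call in CHLA-20 (-0.10, edgeR adjusted p = 0.279). The same removal turned GAPDH in CHLA-20 from -0.03 to 0.11 (edgeR adjusted p = 0.00918). In NGP it took GAPDH from -0.09 to -0.16 (edgeR adjusted p = 1.47e-04). PFKFB3 went from 0.06 to 0.15 in CHLA-20 and from -0.06 to -0.13 in NGP. The trend removed thus pulled these members, at 58.8% and 55.7% GC, in opposite directions in the 2 lines.

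**Figure D5:**
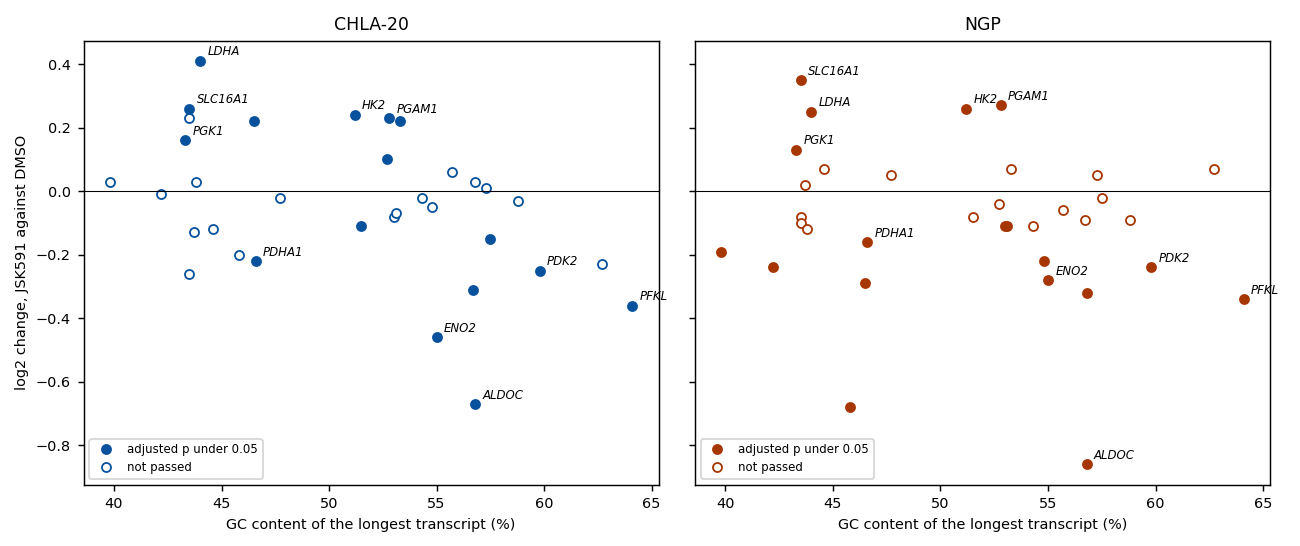
Log2 change with JSK591 (vertical axis) against the GC content of the longest transcript (horizontal axis, percent) for 34 members in CHLA-20 (left) and NGP (right), with names for the 10 genes called in the same direction in both lines. PFKL has the highest GC content at 64.1%, and LDHA, SLC16A1 and PGK1 lie near 44%.

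Genes next to the pathway were counted from lists of their own. Of all genes, 16.9% were higher and 22.4% lower in CHLA-20, and 16.8% and 19.4% in NGP. Of 16 tested genes for other isoenzymes and sugar or monocarboxylate transporters (27 listed), 3 were higher and 3 lower in CHLA-20, and 2 and 3 in NGP. PGM2, a phosphopentomutase, fell in NGP by 0.31 ± 0.06 (edgeR adjusted p = 3.64e-05) and gave 0.06 ± 0.06 in CHLA-20, a difference of -0.37 (8.10e-04). Of 12 tested genes for other pyruvate dehydrogenase parts and pyruvate enzymes, 1 was higher and 5 lower in CHLA-20, and 3 and 2 in NGP. Called higher were DLAT in both lines, and PDPR and GPT in NGP. In NGP the call of DLAT was kept in 14 of 18 alternatives and that of GPT in 11 of 17. ME2, the mitochondrial malic enzyme, which makes pyruvate from malate, fell in both lines, by 0.46 ± 0.04 (edgeR adjusted p = 1.44e-14) and 0.19 ± 0.04 (1.52e-04). PDHX, which anchors a subunit of pyruvate dehydrogenase, fell in NGP by 0.32 ± 0.06 (edgeR adjusted p = 5.67e-06). In CHLA-20 PDHX was also called lower, a call kept in 14 of 18 alternatives.

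Lists for branches of glycolysis are set against all genes, of which 16.9% were higher and 22.4% lower in CHLA-20 and 16.8% and 19.4% in NGP. Of 8 pentose phosphate genes, none was higher and 4 lower in CHLA-20, and 1 higher and 5 lower in NGP. TKT, transketolase, was called lower in both lines, and in CHLA-20 it went from 710 to 543 CPM (-0.39 ± 0.04, edgeR adjusted p = 1.45e-13). H6PD, the glucose 6-phosphate dehydrogenase of the endoplasmic reticulum, moved in opposite directions, from 40.1 to 26.8 CPM in CHLA-20 (-0.58 ± 0.06, edgeR adjusted p = 1.45e-12) and from 29.8 to 40.2 CPM in NGP (0.43 ± 0.06, 1.09e-08), a difference of 1.01 (2.76e-15). Of 5 genes for serine and glycine synthesis, 3 were lower in CHLA-20 and 4 in NGP, with 1 higher in NGP. PSAT1, the aminotransferase of serine synthesis, fell by 0.29 ± 0.04 (edgeR adjusted p = 1.13e-07) and 0.34 ± 0.04 (7.67e-10). Of 11 tested genes for gluconeogenesis and glycogen, none was higher, and 4 were lower in CHLA-20 and 2 in NGP (18.2%). PCK2, the mitochondrial enzyme that makes phosphoenolpyruvate from oxaloacetate, fell by 0.84 ± 0.05 (edgeR adjusted p = 1.64e-22) and 0.61 ± 0.05 (1.01e-15), and GYS1, glycogen synthase, by 0.36 ± 0.06 (3.59e-06) and 0.29 ± 0.06 (2.23e-04). Of 16 citric acid cycle genes, none was higher, and 10 were lower in CHLA-20 and 5 in NGP, with median changes of -0.15 and -0.10. IDH3G, a subunit of isocitrate dehydrogenase, fell by 0.31 ± 0.05 (edgeR adjusted p = 4.32e-07) and 0.21 ± 0.05 (5.80e-04).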

How the data were processed

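RNA from 8 libraries was counted per gene. The deposited values are raw counts, 1 library per file, made by the authors with tools that the submitters' processing notes name as STAR and HTSeq on GRCh38 (hg38); DESeq2 is also named. Versions, annotation and strand setting are not given in the sources used here, so counts of genes that overlap others are less certain. All 58721 identifiers were found in GENCODE 29, which gave symbols, exon lengths and coordinates. Reads outside genes made up 5.15% to 6.86% of counted reads and ambiguous ones 6.77% to 7.18%. These categories were left out of library sizes and tests.

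Counts were analysed with edgeR 4.0.16 in R 4.3.3, with Python 3.11.15 and bedtools 2.31.1 for annotation. Genes were kept by filterByExpr (19395) and scaled by TMM. The quasi-likelihood model had 1 coefficient per group, used all 8 libraries and held no replicate block, with 4 residual degrees of freedom, a common dispersion of 7.61e-04 and a biological coefficient of variation of 2.76%. P-values were Benjamini-Hochberg adjusted over all genes tested, with a threshold of 0.05. The code was tested on simulated data. Replicates differed by more than sampling noise (chi-square per degree of freedom 2.05 to 3.11). At this depth 3 counts, the limit that a count of 0 allows, are at most 0.0904 CPM. Such limits describe counting error alone, because PCR copies of a molecule were not told apart.

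All 35 members are named. From each list of neighbouring genes, at most 3 called genes with the largest change were eligible, and any regulator. For the other pyruvate enzymes and the HIF targets, the genes called higher are named as well. Members and lists were chosen with earlier results of these data known. In all, 18 alternative settings were run, with edgeR or DESeq2 1.42.0. The GC content used for the GC trend came from the longest GENCODE transcript, a choice made after seeing the data.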

Additional observations from a re-analysis of the deposited data

Results flagged for a closer look

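The effect of JSK591 differed between NGP and CHLA-20, by the test of the difference itself, for 6 members, with no explanation tested. The difference on the log2 scale, NGP minus CHLA-20, was -0.14 for ENO1, 0.18 for ENO2, -0.16 for PKM, -0.16 for LDHA, -0.51 for LDHB and -0.23 for MPC2. LDHB was counted on the unshared bases of its gene only, and MPC2 shares 22.5% of its exonic bases with other genes, mostly DCAF6. The groups hold 2 libraries each, too few to look for a library that stands apart within a group.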

How the results depend on the processing

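Over the 18 alternatives, 11 of 17 calls in CHLA-20 and 9 of 18 in NGP held in each setting that gave a value, as did 25 of 31 between the lines and none of the 6 differences of effect. Members lower in CHLA-20, 9 in all, were 5 to 9 when a library was left out, and members lower in NGP, 13 in all, were 7 to 15. The lows were without CHLA-20 DMSO replicate 2 (5), NGP DMSO replicate 2 (7) and NGP JSK591 replicate 2 (8). For the difference of effects, the higher count of 1 became 0 with the DESeq2 test, with the GC trend removed and with no filter, and 0 to 2 when a library was left out. Its lower count of 5 became 8 with DESeq2 size factors, 13 with the GC trend removed and 3 with no filter, and 2 to 9 when a library was left out. The count higher in NGP DMSO, 4, became 7 with the GC trend removed. That setting left 11 higher and 7 lower members in CHLA-20 and 5 and 17 in NGP, and reversed PFKL (-0.29 for the difference of effects and 0.02 between the lines), TPI1 (-0.14 for the difference of effects), GAPDH (0.11 in CHLA-20), PKM (0.07 between the lines) and PDK2 (0.18 between the lines). The cause was not tested. Same-numbered replicates did not share their deviations (correlations -0.027 to 0.012), which does not show whether they were handled together. A replicate block over all libraries left 5 higher and 13 lower members in NGP and changed no member's call. A block within each line ended MPC2 for the difference of effects (adjusted p = 0.052) and, between the lines, PDK2 (0.089) and MPC1 (0.0588). Depth limits PDK4, with 1 count in NGP and calls that are counted here but carry no weight, and SLC16A3 in NGP, at 0.210 to 0.596 CPM.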

Other observations

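Regulators and other targets of the hypoxia pathway were measured beside the glycolytic genes. Of 16 tested hypoxia-inducible factor (HIF) targets outside glycolysis, 2 were higher (12.5%) and 7 lower (43.8%) in CHLA-20, where 16.9% and 22.4% of all genes were, and 3 higher (18.8%) and 6 lower (37.5%) in NGP, where 16.8% and 19.4% were. Called higher were KDM3A and AK4 in CHLA-20, and ADM, EGLN3 and AK4 in NGP. DDIT4, an inhibitor of mTOR signalling, fell in both lines, by 1.20 ± 0.07 on the log2 scale in CHLA-20 (edgeR adjusted p = 5.39e-21) and 0.46 ± 0.06 in NGP (2.33e-08). ADM, adrenomedullin, fell in CHLA-20 by 1.03 ± 0.08 (edgeR adjusted p = 6.62e-18) and was called higher in NGP (0.25 ± 0.09, 0.0317), a difference of 1.27 (5.38e-13). The NGP call of ADM was lost in 5 of the 18 alternatives, among them those without NGP DMSO replicate 1 and without NGP JSK591 replicate 2. VEGFA, the vascular growth factor, was called lower in both lines, and in NGP it went from 211 to 150 CPM (-0.49 ± 0.04, edgeR adjusted p = 5.33e-16). ARNT, the partner subunit of the HIF factors, fell by 0.47 ± 0.04 (edgeR adjusted p = 9.17e-14) and 0.49 ± 0.04 (6.23e-16). HIF1A moved in opposite directions, by 0.22 ± 0.04 in CHLA-20 (edgeR adjusted p = 5.51e-06) and -0.13 ± 0.04 in NGP (0.00424), a difference of -0.35 (6.89e-07). EPAS1, another listed regulator, was called higher in both lines, a call kept in 12 of 18 alternatives in CHLA-20 and 15 of 18 in NGP.

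TXNIP, which lowers glucose uptake and is induced by glucose, was the regulator that differed most between the lines' responses among those called in both lines. It went from 172 to 96.3 CPM in CHLA-20 (-0.83 ± 0.04, edgeR adjusted p = 1.24e-25) and from 28.7 to 40.2 CPM in NGP (0.48 ± 0.05, 3.57e-11), a difference of 1.32 (6.00e-24). Its relative ARRDC4, regulated by the same sensors of glucose, gave -0.11 ± 0.09 in CHLA-20 and 0.74 ± 0.10 in NGP (edgeR adjusted p = 5.39e-09), a difference of 0.85 (5.79e-07). Apart from those of ADM and AK4 in NGP, of KDM3A in CHLA-20 and of EPAS1 in both lines, the calls given here held in each of the alternatives that gave a value.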
